A study of Mus musculus with 2 samples.

Results

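Mouse ES cells that carried the highest share of 8 basement membrane and endoderm transcripts were described in 1 wild-type and 1 *Lin28a* knockout single-cell library. Barcodes qualified as cells with at least 2000 unique molecular identifiers (UMIs, 1 per captured transcript), 0.5% to 20% of UMIs on mitochondrial genes, at least 5% on ribosomal protein genes and under 0.3% on *Col1a1*, *Col1a2* and *Col3a1* together. Within each library the score of a cell was the share of its UMIs on *Col4a1*, *Col4a2*, *Lama1*, *Lamb1*, *Dab2*, *Gata4*, *Gata6* and *Sox17*, and the top 5% were taken as members and the rest as reference cells. This gave 68 members of 1362 qualifying wild-type cells and 39 of 779 qualifying knockout cells, together 107 of 2141 qualifying cells and of 10389 barcodes. The working name of these cells was primitive-endoderm-leaning. The data did not bear that name out. For 14 endoderm factors and receptors outside the score, the ratio of UMI share, members over reference, was 1.08 (0.623 to 1.75) in the wild-type library, on 17 member UMIs. In the knockout library it was 0.505 (0.136 to 1.31) on 4 member UMIs, and 3.16 (1.09 to 7.58) with every cell thinned to 2000 UMIs. The cells are called members or high-score cells throughout.

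Both libraries came from E14 ES cells grown on gelatin with mouse embryonic fibroblast (MEF) feeders in N2B27/LIF/2i medium, 2 days in culture before capture in inDrop droplets. The untreated, wild-type library was made from a transfected wild-type clone (a2.1) and the *Lin28a* knockout library from a CRISPR/Cas9 clone (a3.5), so that each genotype was 1 clone and 1 library. No spread between replicates could be had and no test was made. All intervals are exact 95% intervals (Poisson for a level, conditional for a ratio of counts, Clopper-Pearson for a share) and cover counting error only. No step to remove feeder cells before capture is given in the sources used here. The genotype cannot be told apart from the clone, the culture or the library.

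The primitive endoderm is the layer of the blastocyst that lies between the epiblast and the cavity and gives rise to the visceral and parietal yolk sac endoderm. GATA6, GATA4, SOX17 and SOX7 act in its specification and differentiation, and its cells use the adaptor Disabled-2 (DAB2) for endocytosis and secrete laminin and type IV collagen into a basement membrane. Naive ES cell cultures in 2i block the FGF/ERK signal that favours this fate, and fibroblasts also make type IV collagen and laminin, so that matrix genes alone do not separate endoderm from feeders.

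In all 4329 barcodes with 12079546 UMIs were deposited for the wild-type clone, beside 6060 with 10027710 UMIs for the knockout clone. *Lin28a* itself, the targeted gene, was at 119.7 CPM (UMIs of the gene per 1000000 UMIs of the same cells) in the qualifying wild-type cells and at 42.4 in the knockout cells, a ratio of 0.354 (0.310 to 0.404). Of 1642 wild-type and 1110 knockout barcodes that met the UMI minimum, 1362 and 779 qualified, so the knockout library lost the larger share. Under the lower mitochondrial limit were 239 wild-type and 279 knockout barcodes, and under the ribosomal protein limit 8 and 47. At or over the collagen limit were 42 wild-type and 13 knockout barcodes. These counts overlap, since some barcodes failed several limits. Scrublet, a doublet caller, marked 30 of 1857 wild-type barcodes (1.62%) and 10 of 1637 knockout barcodes (0.611%). Marked were 0 members, beside 25 of 1294 and 7 of 740 reference cells. At such shares few or 0 of the 68 and 39 members would be marked in any case.

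The score rested on very few molecules. Of the 68 wild-type members, 39 held 1 UMI of the 8 genes, 26 held 2 and 3 held 3. Of the 39 knockout members, 18 held 1 UMI, 13 held 2, 7 held 3 and 1 held 4. A 1-UMI cell therefore entered by being shallow, and the deepest such members had 4868 UMIs in wild-type cells and 4664 in knockout cells. The lowest member stood at 0.0205% of UMIs in the wild-type library, beside 0.0203% in the highest reference cell, and at 0.0214% beside 0.0211% in the knockout library. In all 35 wild-type and 15 knockout cells lay within 10% of the limit, and the members are a range of the score that the rule set, not a cell type.

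**Figure D1:**
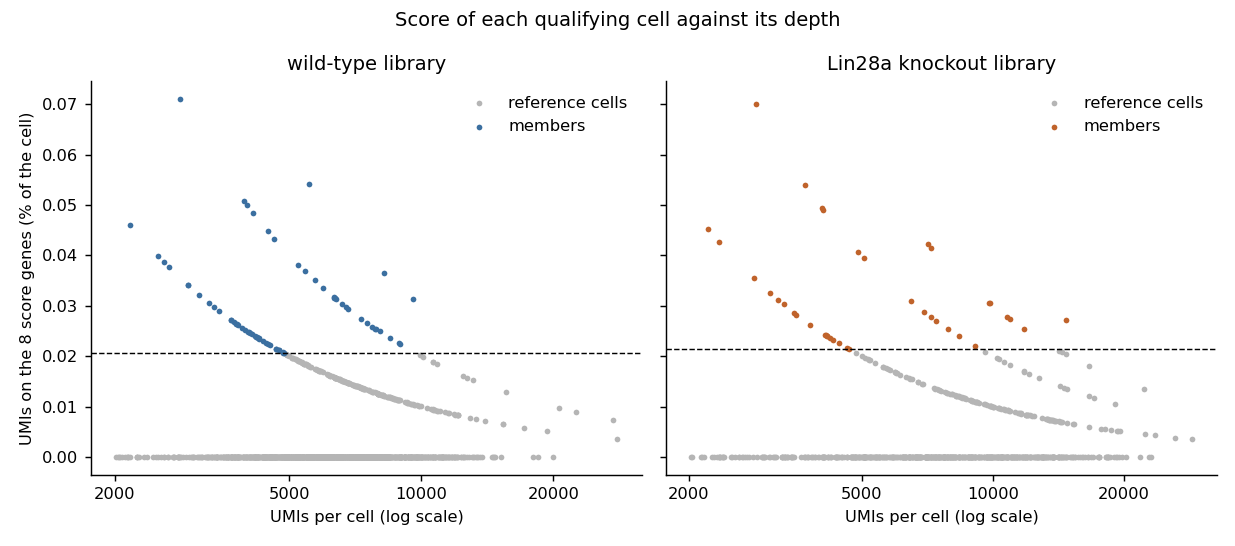
Each point is a qualifying cell, with its total UMIs on a log axis and the percent of them on the 8 score genes, members in colour, reference cells in grey and the lowest member as a dashed line. The points fall on curves of 0, 1, 2, 3 and 4 score UMIs, and members with 1 UMI lie at or below 4868 UMIs in wild-type cells and 4664 in knockout cells.

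Reference cells held these transcripts too. In the wild-type library 192 of 1294 reference cells (14.8%) had at least 1 UMI of a score gene, and in the knockout library 151 of 740 (20.4%) had. Of all score UMIs in qualifying cells, members held 32.9% (wild-type) and 28.2% (knockout). A single gene supplied every score UMI in 50 of 68 members of the wild-type library and in 28 of 39 of the knockout library.

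Members were shallower than reference cells, with a median of 4446 UMIs against 6412 in wild-type cells and 4429 against 8225.5 in knockout cells. The share of cells that were members was 12.4% of wild-type cells with 2000 to 4000 UMIs, 6.98% up to 6000, 2.78% up to 8000 and 1.76% above that. The corresponding knockout shares were 13.4%, 9.35%, 4.29% and 2.03%. The share thus fell at each step of depth in both libraries. The level of the 8 genes, which has no such limit, ran from 41.6 CPM (26.1 to 63.0) in the shallowest wild-type cells to 30.6 (25.03 to 37.0) in the deepest and from 52.0 (27.7 to 88.9) to 34.7 (29.6 to 40.5) in the knockout cells, with overlapping intervals. Mitochondrial UMIs took a median of 1.44% of a wild-type member and 1.49% of a reference cell, and 1.76% and 1.94% in the knockout library.

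The laminin genes supplied most of the score. *Lama1*, the alpha chain of laminin-111 (GRCm38 chr17:67697259-67822647), had 43 UMIs in 37 wild-type members and 95 UMIs in 94 reference cells. Among knockout cells it had 38 UMIs in 24 members and 97 UMIs in 89 reference cells. The highest count of *Lama1* in any cell was 3 in wild-type cells and 4 in knockout cells. *Lamb1*, the beta chain of the same trimer (chr12:31265234-31329644), had 28 UMIs in the wild-type members and 47 in the reference cells, and 8 and 41 in the knockout library. Over all qualifying cells *Lama1* was at 15.1 CPM (12.6 to 17.8) in wild-type cells and 19.8 (16.6 to 23.4) in knockout cells, a ratio of 1.32 (1.03 to 1.68), and *Lamb1* was at 8.18 and 7.19 CPM, a ratio of 0.879 (0.600 to 1.28). These are UMIs of transcript ends, so no scaling by gene length was made.

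*Col4a1* and *Col4a2* encode the chains of the main basement membrane collagen, which assemble as a trimer of both. The genes lie head to head on chromosome 8 and share their promoter, with *Col4a1* on the minus strand (chr8:11198423-11312826) and *Col4a2* on the plus strand (chr8:11312805-11449287). A transcript on the same strand as *Col4a1*, Gm44716, overlaps it with 9 UMIs in the files, so that *Col4a1* reads could have been split. Their RefSeq promoter windows (GRCm38.p6, 250 bases before to 50 after each start) are shown because they overlap. Whether another score gene shares its promoter window with a neighbour was not examined. The capitals mark the 78 bases, from 11312777 to 11312854, that both windows hold, each read 5′ to 3′ on its own gene's strand (*Col4a1*, chr8:11312777-11313076 minus; *Col4a2*, chr8:11312555-11312854 plus).
Col4a1: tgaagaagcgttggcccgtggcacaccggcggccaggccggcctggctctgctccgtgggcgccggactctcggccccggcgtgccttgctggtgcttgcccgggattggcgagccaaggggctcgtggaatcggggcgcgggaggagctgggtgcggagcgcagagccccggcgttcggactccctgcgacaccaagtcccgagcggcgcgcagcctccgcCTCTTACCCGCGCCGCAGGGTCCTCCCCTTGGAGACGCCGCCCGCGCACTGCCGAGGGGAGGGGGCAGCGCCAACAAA
Col4a2: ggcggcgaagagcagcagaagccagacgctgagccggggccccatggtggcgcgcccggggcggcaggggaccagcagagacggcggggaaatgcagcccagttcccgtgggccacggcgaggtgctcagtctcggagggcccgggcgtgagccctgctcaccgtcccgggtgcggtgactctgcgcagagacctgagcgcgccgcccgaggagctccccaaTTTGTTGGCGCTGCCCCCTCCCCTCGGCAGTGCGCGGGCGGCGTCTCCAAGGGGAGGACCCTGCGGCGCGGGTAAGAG

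In the wild-type library *Col4a1* had 7 UMIs in 6 members and 14 UMIs in 14 reference cells, and *Col4a2* had 6 UMIs in 6 members and 13 UMIs in 12 reference cells. In the knockout library *Col4a1* had 10 UMIs in 8 members and 9 in 9 reference cells, while *Col4a2* had 1 UMI in 1 member and 5 in 5 reference cells. With *Col4a1* found in 20 and *Col4a2* in 18 of 1362 qualifying wild-type cells, and in 17 and 6 of 779 knockout cells, a cell with UMIs of both would be rare even if each were captured independently. There were 0 such cells in either library, which allows up to 0.220% and 0.385% of cells with UMIs of both and gives no limit on cells that express both. Among the barcodes at or over the collagen I and III limit, both were present in 16 of 42 wild-type and 4 of 13 knockout barcodes. Those barcodes had a median of 9291.5 and 7134 UMIs, beside 6333 and 8067 in the qualifying cells.

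The endoderm regulators and *Dab2* were also rare. *Gata4* (chr14:63198922-63271692), a zinc finger factor of primitive and visceral endoderm, had 6 UMIs in the wild-type members and 10 in the reference cells, and 5 and 8 in the knockout library. *Gata6*, which acts earliest of these factors in the primitive endoderm, had 1 UMI in the wild-type members and 4 in the reference cells, and 3 UMIs in each class of the knockout library. *Sox17* (chr1:4490931-4497354), an HMG box factor of the endoderm, had 4 and 7 UMIs in wild-type cells and 2 and 7 in knockout cells. *Dab2* (chr15:6299788-6440712), the endocytic adaptor, had 5 and 14 UMIs in wild-type cells and 2 and 6 in knockout cells. Each of the 4 genes was found in under 2% of qualifying cells, from 0.367% (*Gata6*, wild-type) to 1.54% (*Gata4*, knockout). At 2000 UMIs per cell these shares were 0.121% for wild-type *Gata6* and 0.406% for knockout *Gata4*, so most of the detection came with depth beyond the minimum.

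Cells with UMIs of more than 1 of the factors were rare in both classes. At least 2 of *Gata4*, *Gata6* and *Sox17* were present in 0 of the 68 wild-type members, which allows up to 4.41%, and in 1 of the 39 knockout members. Over all qualifying cells these were 0 of 1362 and 1 of 779. Any of the 3 was found in only 31 and 23 qualifying cells, so pairs would be rare at this depth in either class. A factor and a matrix gene of the score were present together in 7 wild-type and 4 knockout members, a count that the choice of members favours. The reference cells had 3 of 1294 and 3 of 740 such cells. Over all qualifying cells, where no choice enters, 10 of the 31 wild-type cells with a factor held a matrix gene, beside 224 of all 1362 cells. In the knockout library these were 7 of 23, beside 171 of 779. The counts were not matched for depth, and whether factor and matrix genes occur together was not tested.

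The barcodes outside the qualifying cells give levels to read the score genes against. Summed over the 8 genes, the level was 33.2 CPM (29.5 to 37.1) in the 1362 qualifying wild-type cells and 52.4 CPM (33.2 to 78.6) in the 2472 wild-type barcodes under 500 UMIs. In the knockout library it was 35.9 CPM (31.6 to 40.7) in the qualifying cells and 50.5 CPM (35.0 to 70.6) in the 4423 barcodes under 500 UMIs. Hence the score genes together were not measured above the near-empty barcodes in either library. In the collagen I and III high barcodes the level was 675 CPM (599 to 757) for the wild-type clone and 502 CPM (375 to 658) for the knockout clone.

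The genes differed in where they were high. *Col4a1* was at 2.29 CPM in the qualifying wild-type cells and at 239 CPM (195 to 290) in the 42 collagen-high barcodes, and *Lamb1* was at 8.18 and 197 CPM (157 to 244). *Gata6* was at 0.545 CPM in the qualifying wild-type cells and at 67.9 CPM (45.5 to 97.6) in the collagen-high barcodes, with 29 UMIs that lay in 8 of the 42 barcodes. In the knockout library *Gata6* had 0 UMIs in the 13 collagen-high barcodes, which allows up to 29.0 CPM. *Lama1* ran the other way in the wild-type library, with 15.1 CPM in the qualifying cells and 1 UMI, 2.34 CPM (0.0593 to 13.1), in the collagen-high barcodes. This was not seen in the knockout library, where *Lama1* was at 19.8 CPM in the qualifying cells and had 2 UMIs, 19.3 CPM (2.34 to 69.8), in the collagen-high barcodes. *Gata4* and *Sox17* had 0 UMIs in the collagen-high barcodes of both libraries, which allows up to 7.03 CPM (wild-type) and 29.0 CPM (knockout). The score therefore mixed genes that were high in the collagen-high barcodes with genes that were not.

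**Figure D2:**
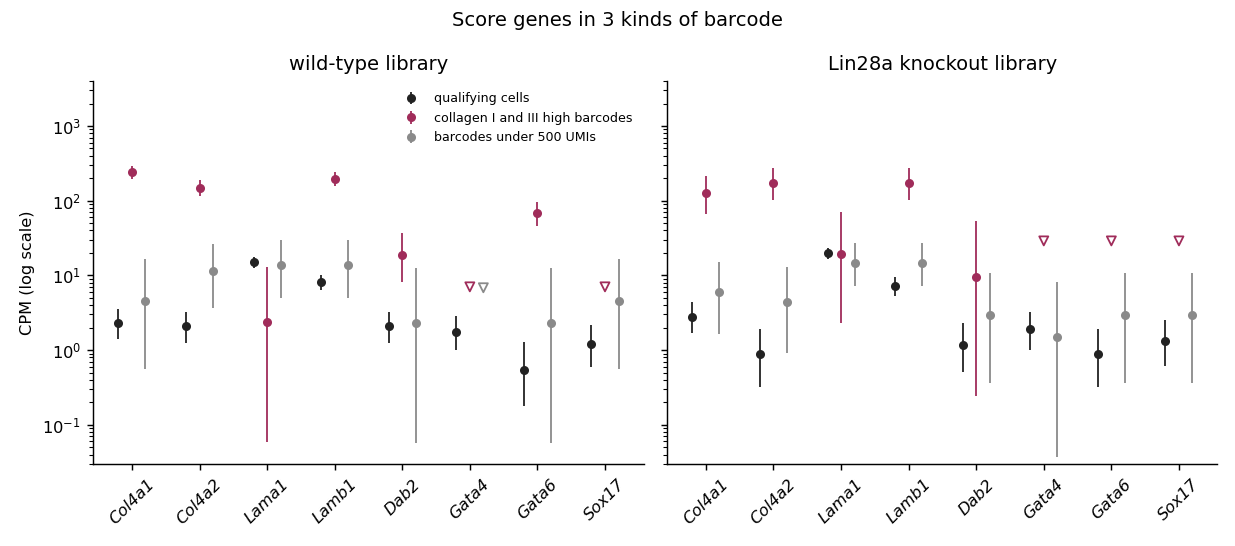
Level of each score gene in CPM on a log axis, with exact Poisson intervals. The classes are qualifying cells, barcodes at or over the collagen I and III limit and barcodes under 500 UMIs. Open triangles mark genes with 0 UMIs at the limit of 3 counts. In the wild-type library *Col4a1*, *Lamb1* and *Gata6* reach 239, 197 and 67.9 CPM in the collagen-high barcodes, where *Lama1* has 2.34 CPM.

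A score gene is raised in members because it chose them, so each was also read in cells chosen by the other 7 genes alone. Chosen in this way, the top 5% of wild-type cells had 7 *Lama1* UMIs, 19.8 CPM against 14.9 CPM in the rest, a ratio of 1.33 (0.525 to 2.82). Knockout cells chosen likewise also had 7 *Lama1* UMIs and a ratio of 1.35 (0.532 to 2.86). *Lamb1* had a ratio of 0.671 (0.0798 to 2.51) in wild-type cells and 1.75 (0.349 to 5.46) in knockout cells, on 2 and 3 UMIs. The other 6 genes had 0 to 2 UMIs in the chosen cells, and each of the 16 intervals held 1. Added over the 8 genes, the chosen cells had 15 UMIs in the wild-type library, a ratio of 1.32 (0.730 to 2.22), and 13 knockout UMIs, a ratio of 1.51 (0.790 to 2.63). The 8 choices shared cells, and a cell with 2 score genes could count for each. These summed counts are thus not independent, and their intervals may be too narrow. With the gene's own part in the choice included, the summed ratios were 12.7 and 11.4, which the choice itself sets. By this reading no tendency of the score genes to occur in the same cells could be detected at this depth. The counts of factor and matrix genes over all qualifying cells, given above, were not matched for depth and do not decide it.

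**Figure D3:**
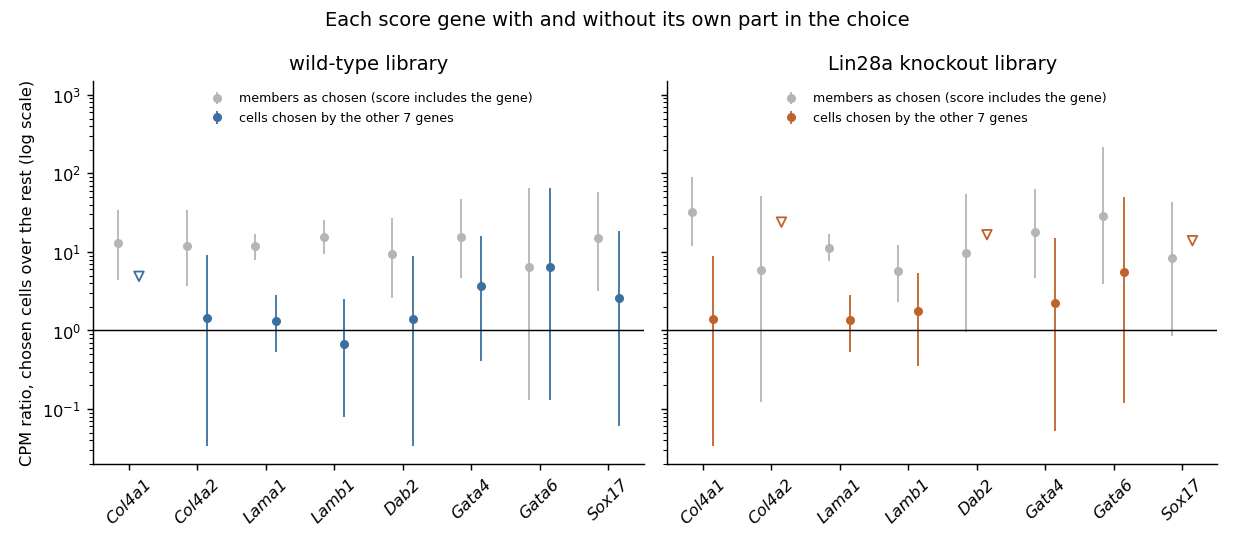
Ratio of CPM, chosen cells over the rest, on a log axis for each score gene, in grey for members as chosen and in colour for cells chosen by the other 7 genes, with 95% intervals; open triangles mark 0 UMIs in the chosen cells, at the upper bound of the interval. Every coloured interval holds 1.

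Endoderm genes outside the score were counted next, by lists that were chosen with earlier results of these data known. The 14 primitive endoderm factors and receptors had 17 UMIs in the wild-type members, 50.02 CPM against 46.3 CPM in the reference cells, a ratio of 1.08 (0.623 to 1.75). This wild-type ratio was 0.562 (0.255 to 1.08) with at least 5000 UMIs per cell, 0.907 (0.615 to 1.29) with the top 10% as members and 1.60 (0.823 to 2.83) with the top 2.5%. Knockout members had 4 UMIs of the list, 17.6 against 34.9 CPM, a ratio of 0.505 (0.136 to 1.31). On so few UMIs the knockout ratio turned with the choice of cells, to 1.19 (0.727 to 1.84) with the top 10% as members, 1.26 (0.659 to 2.197) with at least 5000 UMIs per cell, 1.19 (0.561 to 2.22) with a score without *Gata4*, *Gata6* and *Sox17*, and 3.16 (1.09 to 7.58) with every cell thinned to 2000 UMIs. The list was led by *Fst*, which encodes the activin antagonist follistatin, with 10 of the 17 wild-type UMIs and 1 of the 4 in the knockout library. *Pdgfra*, a surface receptor commonly used to mark primitive endoderm, had 0 UMIs in the wild-type members and 1 in the knockout members, beside 30 and 41 in the reference cells. In wild-type cells this is a ratio of 0 (0 to 3.40), since members held 339893 UMIs of all genes and reference cells 8826709. The knockout totals were 227070 and 6588204. *Sox7* had 0 and 1 UMIs, and *Foxa2*, *Hnf4a*, *Gata5* and *Amn* had 0 in the members of both libraries. The wild-type reference cells held 14 UMIs of *Sox7* and 0 to 9 of each of the others. Such counts do not show members below reference cells. The 12 secreted genes of visceral endoderm had ratios of 1.03 (0.845 to 1.25) and 1.05 (0.838 to 1.31), of which *Apoe* made up 108 of 109 UMIs in wild-type members and 83 of 85 in knockout members. *Ttr*, *Afp*, *Apob* and *Rbp4* were at 0 UMIs in the wild-type members, beside 0, 3, 0 and 1 in all their reference cells.

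The 13 other basement membrane and parietal endoderm genes parted between the libraries. They were at 547 CPM in the wild-type members and 590 CPM in the reference cells, a ratio of 0.927 (0.796 to 1.07), and at 1026 and 588 CPM in knockout cells, a ratio of 1.74 (1.52 to 1.99). *Sparc*, which encodes a collagen-binding matrix glycoprotein, had 67 UMIs in the wild-type members, a ratio of 0.783 (0.605 to 0.999), and 134 in the knockout members, a ratio of 2.43 (2.03 to 2.91). *Lamc1*, the gamma chain that completes laminin-111, had ratios of 0.889 (0.612 to 1.25) and 1.10 (0.739 to 1.57). *Nid1*, which encodes the laminin and collagen linker nidogen-1, had 1.21 (0.808 to 1.74) and 1.26 (0.737 to 2.01). Without 4 knockout cells rich in feeder transcripts, 3 members and 1 reference cell that are described below, the knockout ratio of the list was 1.07 (0.892 to 1.27) and that of *Sparc* 0.918 (0.669 to 1.23). *Tfpi*, of the same list, had a ratio of 0.696 (0.253 to 1.54) in wild-type cells. Without the 3 members it had 0 UMIs in the knockout members beside 136 in the reference cells, a ratio of 0 (0 to 0.843).

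The collagen folding and modifying enzymes, of which 13 of 14 listed were matched, had a ratio of 0.905 (0.795 to 1.03) in wild-type cells and 1.22 (1.07 to 1.38) in knockout cells, and 1.10 (0.955 to 1.25) without those 4 cells. *P4hb*, the beta subunit of prolyl 4-hydroxylase, had 1.08 (0.838 to 1.37) and 1.10 (0.854 to 1.40). The 13 matrix receptors had 1.10 (0.972 to 1.24) and 1.22 (1.05 to 1.42), and 1.12 (0.948 to 1.31) without the 4 cells. *Dag1*, which encodes the laminin receptor dystroglycan, had 1.01 and 0.906, and *Itga6*, a laminin-binding integrin subunit, had 0.995 and 0.977. *Sdc4*, a heparan sulphate proteoglycan of the cell surface, was above the reference in both libraries, at 218 against 156 CPM in the wild-type (1.39, 1.09 to 1.76) and 198 against 138 CPM in the knockout library (1.44, 1.04 to 1.94), but without the 4 cells the knockout ratio was 1.38 (0.983 to 1.89). In wild-type members *Itgb5* had 9 UMIs, a ratio of 2.51 (1.11 to 4.98), while *Itga3* had 0 UMIs beside 107 in the reference cells (0 to 0.911). Without the 3 feeder-rich members the knockout ratios of *Itgb5* and *Itga3* were 1.56 (0.312 to 4.78) and 1.09 (0.347 to 2.60). *Itgb1*, the common beta integrin subunit, had 30 UMIs in the knockout members, a ratio of 2.47 (1.64 to 3.58), and 1.32 (0.731 to 2.21) without the 4 cells. With all cells kept, the median knockout member held the enzymes at 1186 CPM, beside 935 in the median reference cell. The wild-type medians were 716 and 792. For matrix receptors the medians were 715 and 598 (knockout) and 834 and 701 (wild-type). For the basement membrane list they were 622 and 533 (knockout) and 507 and 552 (wild-type).

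**Figure D4:**
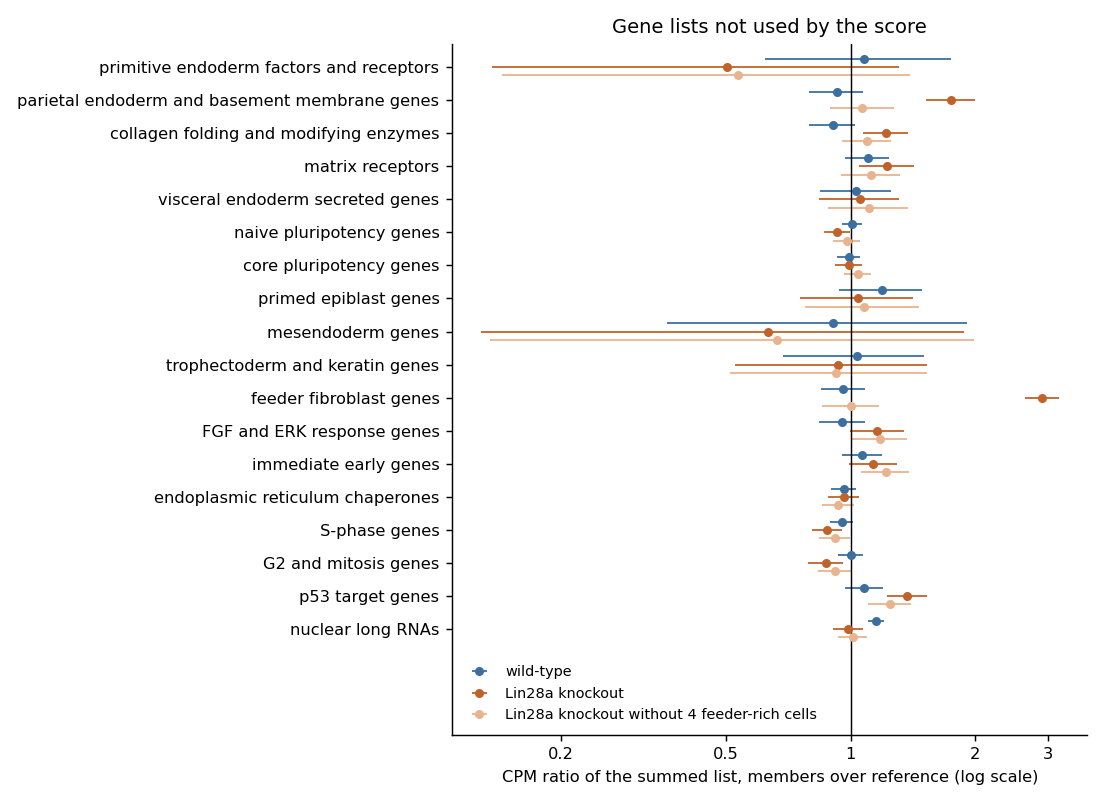
Ratio of summed CPM, members over reference, on a log axis for 18 gene lists that the score did not use, with 95% intervals for the wild-type library, the knockout library and the knockout library without 4 feeder-rich cells (3 members and 1 reference cell). Feeder fibroblast genes (2.90) and basement membrane genes (1.74) stand highest in the knockout library and lie at 1.003 and 1.07 without those cells, which were chosen by the feeder list itself.

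The 3 knockout members set apart held 5069, 3710 and 3305 UMIs, of which 138, 67 and 138 were on a list of 21 feeder fibroblast genes, or 2.72%, 1.81% and 4.18%. The next highest share in the library was 0.564%, in a reference cell of 18430 UMIs, and no other qualifying cell exceeded 0.241% in the wild-type or 0.227% in the knockout library. The limit of 0.5% that separates these 4 cells was chosen after their values were seen. The 3 members held 343 of the 506 feeder-list UMIs of all 39 knockout members. *S100a6* and *Tagln*, which encode a calcium-binding and an actin-binding protein of mesenchymal cells, had 82 and 24 UMIs, all in these 3 members. *Acta2*, smooth muscle actin, had 76 of its 78 UMIs in them, *Lgals1*, galectin-1, had 83 of 92 and *Sparc* had 88 of 134. They entered the members with 2, 2 and 1 score UMIs, of which 4 were *Col4a1* and 1 was *Lamb1*, and they carried 4 of the 10 *Col4a1* UMIs of the knockout members. *Pou5f1*, the core pluripotency factor OCT4, had 0 UMIs in all 3, beside 249 UMIs in the other 36, and naive pluripotency genes had 2 UMIs in all. Their collagen I and III share was at most 0.118%, on 6, 1 and 2 UMIs, under the limit of the rule. *Col6a3*, *Dcn*, *Lum* and *Postn*, matrix genes of the same list, had 0 UMIs in them. The name feeder-rich is taken from the list, and whether these were feeder cells or other cells was not tested.

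Over all members the feeder list had a ratio of 0.960 (0.847 to 1.09) in wild-type cells and 2.90 (2.64 to 3.17) in knockout cells, and of 1.003 (0.853 to 1.17) in the knockout library without the 4 feeder-rich cells. Those cells were chosen by this same list, so a fall of its ratio when the 3 members are left out is set by that choice. With only the 3 members left out and the reference cell kept, the knockout ratio was 0.985 (0.838 to 1.15) for the feeder list, 1.05 (0.878 to 1.25) for the basement membrane list and 0.883 (0.644 to 1.18) for *Sparc*. Of the list's defining matrix genes, *Col6a3*, *Dcn*, *Lum* and *Postn* were at 0 UMIs in the members of both libraries, while *Col6a1* had 2 UMIs in each. *Lox*, which encodes the collagen crosslinking enzyme lysyl oxidase, had 0 UMIs in the wild-type members and 6 in the knockout members, beside 3 in the knockout reference cells, a ratio of 58.0 (12.4 to 359). The 6 UMIs lay in 2 members, and without the 4 feeder-rich cells *Lox* was at 0 UMIs in both classes. *Col5a1*, *Col5a2* and *Col6a2* had 1 UMI each in the knockout members and 0 in the wild-type members. *Fn1*, fibronectin, which the ES cells of both classes also held, had 142 UMIs in wild-type members and 106 in knockout members, ratios of 1.01 (0.846 to 1.19) and 1.18 (0.961 to 1.43).

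**Figure D5:**
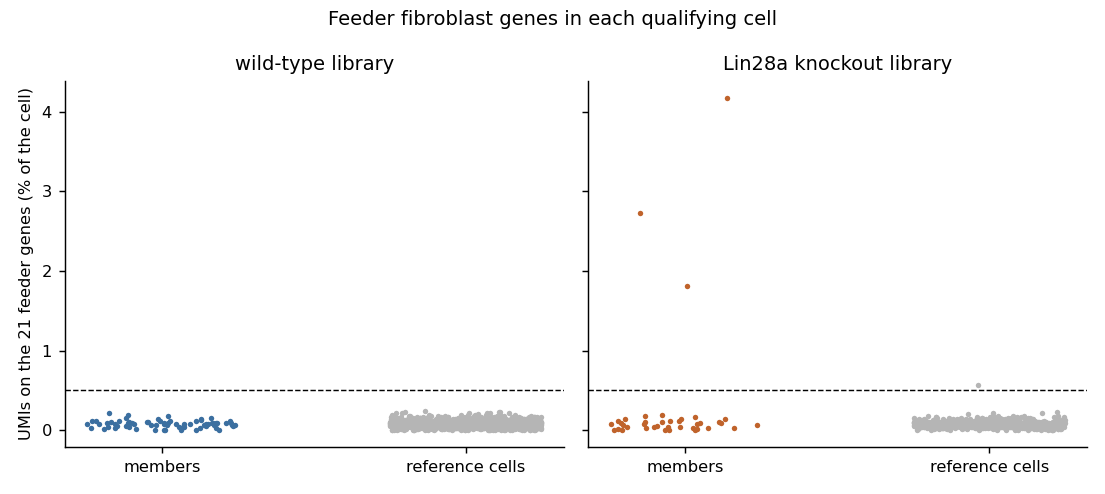
Percent of the UMIs of each qualifying cell on 21 feeder fibroblast genes, for members in colour and reference cells in grey, with horizontal scatter for display only and the limit of 0.5% dashed. Of the knockout cells, 3 members stand at 1.81% to 4.18% and 1 reference cell at 0.564%, and all other cells of both libraries are at or under 0.241%.

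Summed over each list, members held the pluripotency genes at levels near those of the reference cells. The 14 naive genes were at 3628 CPM in the wild-type members and 3594 in the reference cells, a ratio of 1.01 (0.953 to 1.07). Their knockout levels were 3373 and 3633 CPM, a ratio of 0.929 (0.863 to 0.998), and 0.979 (0.910 to 1.05) without the 4 feeder-rich cells. *Nanog*, which opposes the primitive endoderm fate, had 99 and 71 UMIs in the members, with ratios of 0.943 (0.764 to 1.15) and 0.971 (0.756 to 1.23). *Zfp42*, also known as Rex1 and lost early on leaving the naive state, had 0.9995 (0.882 to 1.13) and 0.861 (0.715 to 1.03), and *Klf4* had 1.04 and 0.973. The 9 core genes had 0.989 (0.928 to 1.05) and 0.990 (0.918 to 1.07), with *Pou5f1* at 780 against 832 CPM in wild-type cells and 1097 against 1044 CPM in knockout cells. *Dppa5a*, the most abundant of the list, had 1.08 (0.976 to 1.20) and 1.004 (0.887 to 1.13). Single genes departed from this in the knockout members. *Pecam1*, a surface adhesion molecule of the naive list, had a ratio of 0.509 (0.277 to 0.859), and 0.537 (0.292 to 0.906) without the 4 feeder-rich cells, beside 0.835 (0.513 to 1.29) in wild-type cells. *Tdgf1*, the NODAL coreceptor Cripto of the core list, had 0.756 (0.576 to 0.974), and 0.783 (0.596 to 1.01) without them, beside 1.02 (0.838 to 1.23). *Lin28a* stood at 109 CPM (76.6 to 150) in the wild-type members and 120 in their reference cells, and at 22.0 (7.15 to 51.4) and 43.1 CPM in the knockout library.

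Lists of other fates had intervals that held 1 in both libraries. The 10 primed epiblast genes had ratios of 1.19 (0.940 to 1.49) and 1.04 (0.755 to 1.41), the 8 mesendoderm genes 0.909 (0.361 to 1.91) and 0.631 (0.129 to 1.88), and the 10 trophectoderm and keratin genes 1.04 (0.689 to 1.501) and 0.930 (0.528 to 1.53). The 13 2C genes, the early-embryo program that the study followed in *Lin28a* loss, had 0 UMIs in the wild-type members, which allows up to 8.83 CPM, and 1, of *Usp17la*, in the knockout members. Their reference cells held 30 and 25 UMIs, 3.40 and 3.79 CPM. The ratios were 0 (0 to 3.40) and 1.16 (0.0283 to 7.09), so these counts do not show members below reference cells. Over the qualifying cells of both libraries together, the genes with most UMIs in the other lists were *Dnmt3b*, a de novo DNA methyltransferase, at 1.17 (0.793 to 1.67) and 1.01 (0.532 to 1.75), *Eomes*, a T-box factor, at 1.61 (0.632 to 3.42) and 0.427 (0.0106 to 2.46), and *Tfap2c*, an AP-2 factor, at 0.830 (0.394 to 1.55) and 1.03 (0.373 to 2.29). In the knockout reference cells alone *Nodal*, a primed epiblast gene of the lists, had more UMIs than *Dnmt3b*, 453 against 374.

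Across all genes, 3154 were compared, each with 400 UMIs or more per library, with 0.5 added to each count and the score genes left out. The median ratio was 1.01 in wild-type cells and 0.993 in knockout cells, and the 5th to 95th percentiles were 0.741 to 1.31 and 0.646 to 1.40. At least 2-fold higher in wild-type members were 0 genes (0% of those compared), and at least 2-fold lower were 7 (0.222%), *Fgd1*, *Hibadh*, *Llgl1*, *Mars*, *Minpp1*, *Pfdn6* and *Shmt1*. In the knockout library 5 genes were at least 2-fold higher (0.159%) and 37 were at least 2-fold lower (1.17%). Past 2-fold in both libraries were 0 genes (0%) in either direction, and 1670 of the 3154 lay on the same side of 1 in both. The median gene had 42 UMIs in wild-type members and 27 in knockout members. The only endoderm or matrix gene among the 5 was *Sparc*. The other 4 were *Ftl1*, which encodes ferritin light chain (2.22), *Gnas*, a stimulatory G protein subunit (2.72), *Cald1*, an actin-binding protein of contractile cells (2.23), and *Btg2*, an antiproliferative p53 target (2.04). Of their UMIs in the 39 knockout members, the 3 feeder-rich members held 291 of 554, 23 of 34, 15 of 44 and 9 of 33. Without these 3, and with the feeder-rich reference cell kept, the ratios were 1.11 for *Ftl1*, 0.919 for *Gnas*, 1.54 (1.02 to 2.23) for *Cald1*, 1.55 (0.980 to 2.33) for *Btg2* and 0.883 for *Sparc*, so that 0 of the 5 stayed past 2-fold.

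The genes that came closest to a change shared by both libraries, ranked by the smaller of the changes, were small in size. The highest were *Fkbp8*, a mitochondrial immunophilin, at 1.49 (0.913 to 2.22) and 1.60 (0.970 to 2.40), *Wdr45b*, an autophagy protein, at 1.45 and 1.47, *Btg2* at 1.44 and 2.04 (1.55 without the 3 feeder-rich members), and *Ndufb11*, a complex I subunit, at 1.56 (1.13 to 2.06) and 1.44 (0.925 to 2.08). They were followed by *Ctbp1*, *Wtip*, *Gstp1*, *Sdc4*, *Trim41* and *Gm13268*, at 1.39 to 1.48 in wild-type cells and 1.41 to 1.66 in knockout cells. The lowest were *Naa40*, an N-terminal acetyltransferase, at 0.586 (0.353 to 0.880) and 0.597 (0.330 to 0.947), *Slc9a3r1*, a scaffold protein of apical membranes, at 0.637 (0.365 to 0.987) and 0.505 (0.249 to 0.852), and *Rtcb*, the tRNA splicing ligase, at 0.644 (0.376 to 0.987) and 0.543 (0.268 to 0.918). *Setd1b*, *Trim59*, *Diablo*, *Gpbp1*, *Zrsr2*, *Msmo1* and *Tmem165* completed them. Of these 20 genes only *Sdc4* was on a list of matrix or endoderm genes. Such genes head any ranking of 3154, and they were not set against a replicate.

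Because the top 5% fixes the number of members in each library, the libraries were compared over all qualifying cells. The summed level of the 8 genes was 35.9 CPM in the knockout and 33.2 CPM in the wild-type library, a ratio of 1.08 (0.912 to 1.29). By gene the ratio ran from 0.425 (0.139 to 1.11) for *Col4a2* to 1.61 (0.410 to 6.69) for *Gata6*, and the interval held 1 for 7 of the 8 genes, all but *Lama1*. The wild-type limit was reached by 43 of 779 knockout cells, 5.52% (4.02% to 7.36%), beside 4.99% of the wild-type cells. After thinning every cell to 2000 UMIs, where 1 UMI made a cell a member, 57 of 779 knockout cells (7.32%, 5.59% to 9.38%) and 86 of 1362 wild-type cells (6.31%) held a score UMI. A difference between the libraries in the share of such cells was thus not detectable at this depth.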

How the data were processed

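Single-cell RNA-seq of 2 inDrop libraries of mouse ES cells, 1 wild-type and 1 *Lin28a* knockout, was analysed. Per the study's methods, matrices came from an inDrop pipeline that others had published. The values the authors deposited are UMI counts for each gene and barcode, not normalized. The submitters' processing notes name Seurat 2.3.4 and the build mm10; the aligner and annotation are not given in the sources used here. Of 54146 gene identifiers, 54079 were found in GENCODE M21 (GRCm38), which also gave the coordinates, when versions were ignored, and 52480 when they were not (the versions of *Lama1* and *Gata6* differ). Promoter windows are from RefSeq (GRCm38.p6), in which 4 of the 8 score genes matched. Barcodes are numbered serially in each file, so shared barcodes were not counted.

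Cells were chosen as stated in the results. Their medians were 6333 UMIs in wild-type cells and 8067 in knockout cells. UMIs were summed over members and reference cells and divided by the total UMIs of those cells (CPM). For 0 counts the upper limit was set at 3. With 1 library per group no test was made. Scrublet (in scanpy 1.11.5) was run on barcodes from 500 UMIs, and cells were thinned by a hypergeometric draw with seed 1. Genes across the table were compared where at least 400 UMIs were present in each library. The genes named are the 8 score genes, the most abundant genes of the lists, other list genes and genes past 2-fold chosen after their values were seen, and the 10 highest and 10 lowest ratios ranked by the library nearer to 1. Of 242 listed symbols 241 were matched. A gene of the lists is not reported here by name. The members, lists and limits were chosen with earlier results of these data known, and the limit of 0.5% on feeder genes after the values were seen.

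Alternatives were other shares of cells, minimum UMIs, collagen limits, score genes, denominators, scalings, weights, gene filters and folds, removal of doublets and thinning to 2000 UMIs. The calculation was tested on simulated data. Scripts ran in Python 3.11.15 with scipy 1.17.1, numpy 2.4.6, anndata 0.12.19, pandas 2.3.3 and matplotlib 3.10.9.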

Additional observations from a re-analysis of the deposited data

Results flagged for a closer look

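Lists that lay on opposite sides of 1 in the 2 libraries, with counting intervals that did not overlap, are given here. The difference between the libraries was not tested, since each is 1 library. Basement membrane and parietal endoderm genes had a ratio, members over reference, of 0.927 in wild-type cells and 1.74 in knockout cells, and collagen folding and modifying enzymes of 0.905 and 1.22. Feeder fibroblast genes had 0.960 and 2.90. Without the 4 feeder-rich knockout cells, 3 members and 1 reference cell, these knockout ratios were 1.07, 1.10 and 1.003. The fall of the last is set by the choice of those cells on the feeder list itself. The 6 nuclear long RNAs had 1.15 in wild-type cells and 0.987 in knockout cells, led by *Malat1*, a nuclear-retained RNA, at 1.19 (1.13 to 1.25) and 0.944 (0.849 to 1.05). Wild-type members had a median of 4446 UMIs beside 6412 in their reference cells, and with the reference weighted to the depth of the members the wild-type ratio of the nuclear list was 1.13. With every cell thinned to 2000 UMIs and members chosen again it was 0.971 (0.900 to 1.05), and the knockout ratio 1.16 (1.02 to 1.33), so that the order of the libraries turned.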

How the results depend on the processing

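No paired analysis was possible because each group is 1 library. At least 2-fold higher in both libraries were 0 genes under all 17 alternatives, and at least 2-fold lower 0 under 14 of them and 3 each with the top 2.5% of cells as members, with genes from 200 UMIs, and at 1.5-fold. The genes compared were 3154 in the main setting, at 1.5-fold and with the top 2.5%. They were 5465 with genes from 200 UMIs, 1226 with genes from 1000 UMIs and only 623 with thinned cells. The ratio of primitive endoderm factors moved to 0.562 in the wild-type library with at least 5000 UMIs per cell and to 3.16 (1.09 to 7.58) in the knockout library with cells thinned to 2000 UMIs, where members are ties at 1 UMI. That of basement membrane genes moved to 0.757 with thinned cells in the wild-type library. In the knockout library it was 2.52 with the top 2.5%, 1.32 with the top 10%, 1.10 with at least 5000 UMIs, 1.25 with a score without *Col4a1* and *Col4a2*, 2.09 as a mean of cell shares and 1.001 with feeder-rich cells left out and members chosen again, an alternative added after the values were seen. The ratio of feeder genes in the knockout library reversed to 0.955 there, where the same list chose the cells left out, and ran up to 5.37 with the top 2.5%. It was 1.33 with a score without *Col4a1* and *Col4a2*, 1.66 with at least 5000 UMIs and 1.82 with the top 10%. With collagen I and III under 0.1% it was 2.09, with thinned cells 2.33 and as a mean of cell shares 3.83. That of nuclear long RNAs in the wild-type library reversed to 0.971 with thinned cells. Knockout cells at or above the wild-type limit were 3.21% with the top 2.5% and 9.37% with the top 10%, shares that follow the limit itself. The cause of the other moves was not tested. The score genes in cells chosen by the others, and the summed score genes between the libraries, stayed within their counting intervals under the 6 and 9 alternatives run for them.

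With 1 to 4 score UMIs per member, depth limits every statement on which cells hold these genes. The 4 UMIs of primitive endoderm factors in the knockout members leave an interval of 0.136 to 1.31. 1 clone per genotype leaves the libraries without a replicate.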

Other observations

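In the wild-type members the intervals of both cell cycle lists held 1. The S-phase list had a ratio of 0.952 (0.892 to 1.01) and the G2 and mitosis list of 1.003 (0.935 to 1.07). In the knockout members these were 0.879 (0.806 to 0.956) and 0.872 (0.791 to 0.959), and 0.916 (0.840 to 0.997) and 0.919 (0.834 to 1.01) without the 4 feeder-rich cells, 3 members and 1 reference cell. *Top2a*, a topoisomerase of dividing cells, had 0.979 (0.844 to 1.13) and 0.843 (0.679 to 1.04). *Pcna*, the replication clamp, was at 317 against 442 CPM in the knockout library (0.718, 0.560 to 0.907) and at 585 against 651 CPM in the wild-type library (0.900, 0.777 to 1.04). The 12 p53 target genes had 1.08 (0.969 to 1.20) in wild-type members and 1.37 (1.23 to 1.53) in knockout members, and 1.21 (1.07 to 1.36) without the 3 feeder-rich members alone. *Cdkn1a*, the cell cycle inhibitor p21, had 1.15 (0.906 to 1.44) and 1.43 (1.09 to 1.83), and *Mdm2*, the p53 ubiquitin ligase, had 1.22 and 1.42. Without the 3 members the knockout ratios were 1.11 (0.809 to 1.48) and 1.11 (0.741 to 1.61). The feeder-rich reference cell, kept there, held 132 of the 1301 *Cdkn1a* UMIs of the knockout reference cells. With that cell left out too, the p53 list had 1.24 (1.10 to 1.40). *Ccng1*, which encodes cyclin G1, had 1.90 (1.41 to 2.53) in the knockout library and 1.54 (1.09 to 2.12) without the 3 members.

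The 13 FGF and ERK response genes, a readout of the signal that 2i blocks, had 0.954 (0.838 to 1.08) and 1.16 (0.996 to 1.34), with *Ccnd1*, cyclin D1, at 1.01 and 1.01 and *Spry2* at 0.905 and 1.16. Without the 3 feeder-rich members the knockout ratio was 1.17 (0.997 to 1.36), and 1.17 (1.005 to 1.37) with the feeder-rich reference cell left out too. That of *Fgfr1*, an FGF receptor, was 1.78 (1.16 to 2.62) without the 3 members, beside 1.68 with them and 0.823 (0.467 to 1.35) in wild-type cells. Immediate early genes had 1.07 (0.955 to 1.19) and 1.14 (0.992 to 1.29), with the knockout ratio at 1.17 (1.02 to 1.34) without the 3 members. *Ier2* had 1.13 (0.925 to 1.38) and 1.03 (0.822 to 1.28). *Fos* had 27 UMIs in the wild-type members, a ratio of 0.568 (0.373 to 0.831), and 28 in the knockout members, 1.33 (0.878 to 1.94). *Jun* went the other way in the wild-type members, with 16 UMIs and a ratio of 1.98 (1.11 to 3.29), and had 1.26 (0.566 to 2.43) in the knockout members. *Junb* had 1.69 (1.06 to 2.57) in the knockout members, 1.78 (1.12 to 2.72) without the 3 members and 2.07 (1.30 to 3.16) without the 4 cells. The endoplasmic reticulum chaperones had 0.962 (0.897 to 1.03) and 0.963 (0.883 to 1.05), with *Calr* at 0.998 and 1.08.

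1 knockout reference cell of 18430 UMIs held 104 feeder-list UMIs together with 88 UMIs of naive pluripotency genes and 3 of core genes, of which 1 was *Pou5f1*. It held 132 UMIs of *Cdkn1a*, 65 of *Sparc* and 0 of the 8 score genes.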
